A study of Drosophila melanogaster with 90 samples.

Results

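Cuticle protein genes were followed in whole adult females of 5 inbred Drosophila melanogaster lines, named Beijing, Ithaca, Netherlands, Tasmania and Zimbabwe after the places from which the populations came. Members were all genes whose symbol starts with Cpr and a digit, Twdl, Lcp, Ccp84A or Edg84A, or is Pcp or Acp65Aa. This gave 120 of 14514 gene rows: 70 Cpr, 25 Twdl, 15 Lcp and 7 Ccp84A genes, and Edg84A, Pcp and Acp65Aa. Virgin females of each line were mated once to males of 1 of the 5 lines (25 crosses, written with the female line first) or stayed virgin. Females and males were 3 to 5 days old when an experiment began, and freezing followed 5 to 6 h into the mating period, alongside virgins of equal age. No group carried a transgene, a mutation or a drug, and each line stands for a single inbred genotype. The labels describe the Zimbabwe line as a recent migrant to Africa.

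The insect cuticle is built from chitin fibres and structural proteins secreted by the epidermis. Cpr, Lcp, Ccp84A, Edg84A, Pcp and Acp65Aa proteins mostly carry the Rebers and Riddiford consensus, a chitin-binding sequence, while the Tweedle (Twdl) proteins form a separate family first known from mutants with a squat body. Lcp means larval cuticle protein, Pcp pupal cuticle protein and Acp adult cuticle protein, after the stage of the cuticle in which each was first found. Cuticle is laid down in each moult under the control of ecdysone, and inner cuticle layers are still being added in young adult flies. The Ccp84A genes lie together near the Antennapedia complex.

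Each library pooled 5 to 10 whole females, and 89 libraries were read, 15 from virgin and 74 from mated females. Replicate 2 of Ithaca x Zimbabwe was not analysed here. Total counts per library ran from 4407704 to 38799730. Adult female markers (yolk and eggshell genes, with Fit and Send1 also listed) summed to 18125 to 77735 CPM, the counts scaled to a common library size, in every library. Of the other marker lists, those of the accessory gland summed to 0 to 511 CPM, the ejaculatory duct and bulb to 84.8 to 1212 CPM, larval tissue to 2.16 to 567 CPM and the early embryo to 15.9 to 188 CPM. Testis transcripts exceeded 10 CPM in 6 libraries, all from mated females, and were highest in Ithaca x Zimbabwe replicate 1 (1179 CPM) and Netherlands x Beijing replicate 2 (1106 CPM). More than 10% of RNA from another line was found in 6 libraries, and the library labelled Netherlands x Ithaca replicate 2 went against its label with 92.7% Ithaca RNA. Results were therefore also computed without 9 of these libraries. The one with 22.4% Zimbabwe RNA, Ithaca x Zimbabwe replicate 3, was kept because its cross would otherwise have had none. Since whole flies were used, fewer cells of a type and less RNA per cell cannot be told apart.

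Most cuticle protein genes were barely detected in these adults. Only 48 of the 120 members had enough counts to be tested: 35 Cpr, 5 Twdl, 3 Lcp and 3 Ccp84A genes, Pcp and Acp65Aa. The 72 others never exceeded 0.920 CPM in any library, and Edg84A, a pupal gene induced by ecdysone, was among them. Of all 120, 1 member averaged at least 100 CPM, 9 averaged 10 to 100 CPM, 18 averaged 1 to 10 CPM, 27 averaged 0.1 to 1 CPM, 59 averaged less and 6 had no count at all. These 6 were Cpr57A, Cpr65Ax1, Cpr65Ax2, Lcp65Ab1, Lcp65Ab2 and TwdlK. Some of them are numbered copies with a near-identical neighbour, and how reads that match more than 1 place were counted is not given, so a count of 0 for a copy is uncertain. Even with no count in any library, the limit that 3 counts allow over all libraries was 0.00225 CPM, for counting error alone.

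Cpr49Ae led the family with a mean of 187 CPM, and 30.5% of all counts of members. By mean it was followed by Cpr49Ab (76.6 CPM), Cpr65Au (67.0 CPM), Cpr67B (49.9 CPM) and Acp65Aa (37.8 CPM). Levels then passed through Cpr47Ef (29.1 CPM), Cpr92F (28.8 CPM), Cpr62Bb (23.6 CPM), Cpr76Bd (13.5 CPM) and Cpr100A (11.9 CPM). These means hide a wide spread in some members. By median over libraries Acp65Aa stood at 13.3 CPM, below Cpr47Ef (24.8 CPM) and Cpr62Bb (21.9 CPM), and Cpr92F at 4.33 CPM, below Cpr100A (8.03 CPM) and Cpr97Eb (5.79 CPM). Cpr97Eb, Cpr47Ea, Cpr47Ee, Cpr51A and Cpr66D, a protein of the corneal lens, averaged 5.04 to 7.84 CPM. Per kilobase of exon, which allows levels to be compared between genes, Cpr49Ae stayed first at 158 CPM per kb. Cpr65Au moved to second place at 127 CPM per kb, ahead of Cpr49Ab at 90.0 and Acp65Aa at 61.4 CPM per kb. Exons of Cpr65Au overlap an antisense transcript and those of Cpr47Ea overlap Or47a on the other strand, and since the strand setting of the counting is not given, reads of such pairs cannot be told apart with certainty. Cpr67B had 49.4, Cpr62Bb 23.8, Cpr92F 15.5, Cpr47Ef 13.2, Cpr100A 8.60 and Cpr51A 7.99 CPM per kb. The highest Twdl member was TwdlE with a mean of 4.56 CPM, and Pcp averaged 4.12 CPM.

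**Figure D1:**
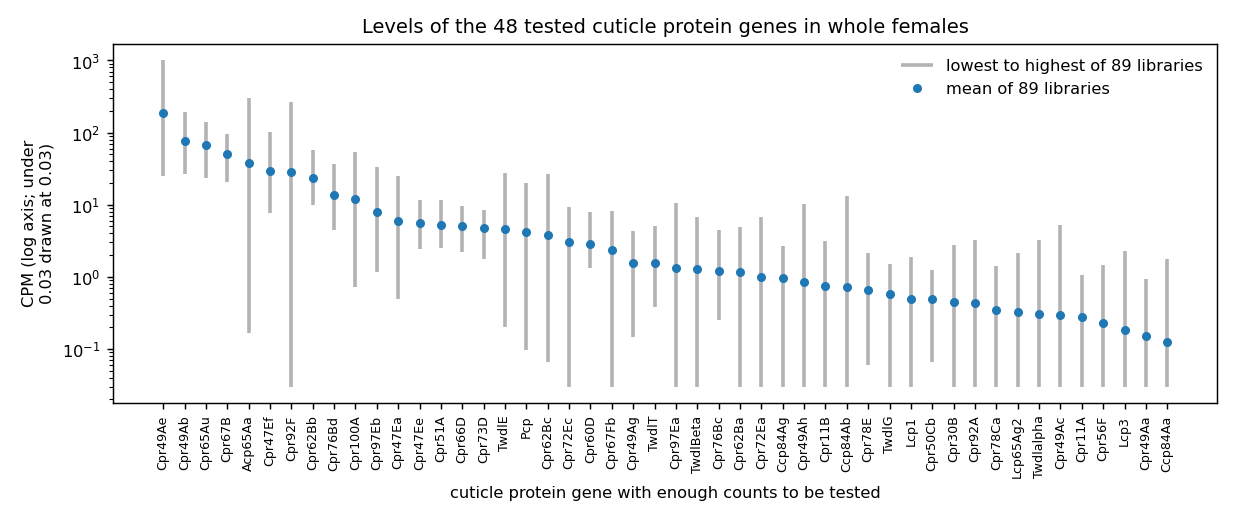
Mean CPM (blue points, log axis) and the range over 89 libraries (grey bars) for the 48 tested members in order of mean level. Cpr49Ae stood highest at 187 CPM, and the bars of Acp65Aa and Cpr92F were much longer than those of their neighbours.

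Members that had enough counts for a test came from many cytological bands. The 65A band holds 18 members, of which 3 were tested, and 6 of the 8 members at 49A were. All 3 members at 62B and both of the 2 members at 97E were tested, 3 of the 8 at 84A and none of the 4 at 64A, although Cpr64Ad had counts in 84 of 89 libraries (mean 0.253 CPM). No test between bands was run.

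The members with the widest spread followed the replicate number in the labels. Acp65Aa, an adult cuticle protein, had a median of 29.3 CPM in the 25 mated libraries numbered 1 (3.73 to 303 CPM) and 28.6 CPM in the 24 numbered 2 (1.37 to 107 CPM). In the 25 mated libraries numbered 3 its median was 1.05 CPM (0.165 to 19.7 CPM). Virgin libraries showed no such gap, with medians of 44.1 CPM for number 1, 32.5 CPM for number 2 and 41.8 CPM for number 3. In Zimbabwe females mated with Zimbabwe males, for example, replicate 1 had 303 CPM, replicate 2 had 36.5 CPM and replicate 3 had 1.22 CPM, while the 3 virgin libraries of that line had 49.2, 71.2 and 54.1 CPM. Replicate 3 was the lowest of its cross in all 24 crosses with 3 libraries.

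The same order was found in some other members. Cpr49Ae had medians of 180 CPM, 145 CPM and 60.4 CPM in mated libraries numbered 1, 2 and 3, and 164 CPM, 142 CPM and 164 CPM in virgins. Cpr92F had medians of 25.5 CPM, 4.73 CPM and 0.520 CPM in mated libraries, against 19.7 CPM, 9.58 CPM and 9.94 CPM in virgins. Cpr47Ea and Cpr49Ae were lowest in replicate 3 in 24 of 24 crosses. Cpr100A, Cpr76Bd and Cpr92F were lowest in 23, and Cpr62Bc and Cpr97Eb in 22. Of the 10 members with the highest means, Cpr49Ab (19 crosses), Cpr47Ef (18), Cpr62Bb (18), Cpr67B (17) and Cpr65Au (15) were lowest in replicate 3 less often, and Cpr65Au had medians of 52.1, 75.3 and 52.1 CPM in mated libraries numbered 1, 2 and 3. In all, 11 of the 48 tested members were lowest in replicate 3 in at least 20 crosses, as were 1.92% of the 12045 genes tested. Pcp, by contrast, was lowest in replicate 3 in 5 crosses, and Cpr67Fb in 3.

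In a quasi-likelihood test chosen after this pattern was seen, 31 of 48 members were lower in mated libraries numbered 3 than in those numbered 1 and 2, and none was higher. Of all genes, 39.6% were called in that test, 19.6% lower and 20% higher. The log2 difference was -4.33 ± 0.37 (SE) for Acp65Aa (adjusted p = 3.99e-14), -4.14 ± 0.46 for Cpr92F (adjusted p = 3.60e-10) and -1.63 ± 0.14 for Cpr49Ae (adjusted p = 3.98e-14). Among virgins 0 members and 0% of all genes were called by edgeR, with 1 member at an unadjusted p under 0.05, but virgins have only 5 libraries of each number. The difference between mated and virgin females in this contrast was called for 9 of 48 members and for 0.714% of all genes (0.706% lower and 0.0083% higher). These 9 were Acp65Aa, Cpr47Ea, Cpr97Eb, Cpr49Ae, Cpr62Bc, Cpr92F, Cpr100A, TwdlE and Cpr76Bd, all of them lower in mated number 3. Leaving out the 9 libraries set apart, 10 members were called in the difference, again all lower, against 0.714% of all genes (0.681% lower and 0.0332% higher). Among mated libraries 30 members were then lower in number 3 and 1, Cpr67Fb, was higher (log2 difference 0.26 ± 0.10, adjusted p = 0.0423), against 38.3% of all genes (19.3% lower and 19% higher). The labels say that replicates came from separate bottles and that their matings were set up together, and they give no other property of a number. In mated libraries numbered 1, 2 and 3, respectively, the total counts had medians of 13760324, 12882780 and 15520248, and larval markers summed to medians of 69.3, 48.2 and 72.2 CPM. Adult female markers had medians of 39771, 37621 and 30519 CPM, and those of the ejaculatory duct and bulb 144, 155 and 119 CPM. The slope of log2 CPM on log2 exon length, which can move with RNA quality, had medians of 1.05, 0.951 and 1.11. In virgins the adult female markers also had their lowest median in number 3 (32795, 29304 and 24650 CPM). The part of these values in the pattern was not tested.

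**Figure D2:**
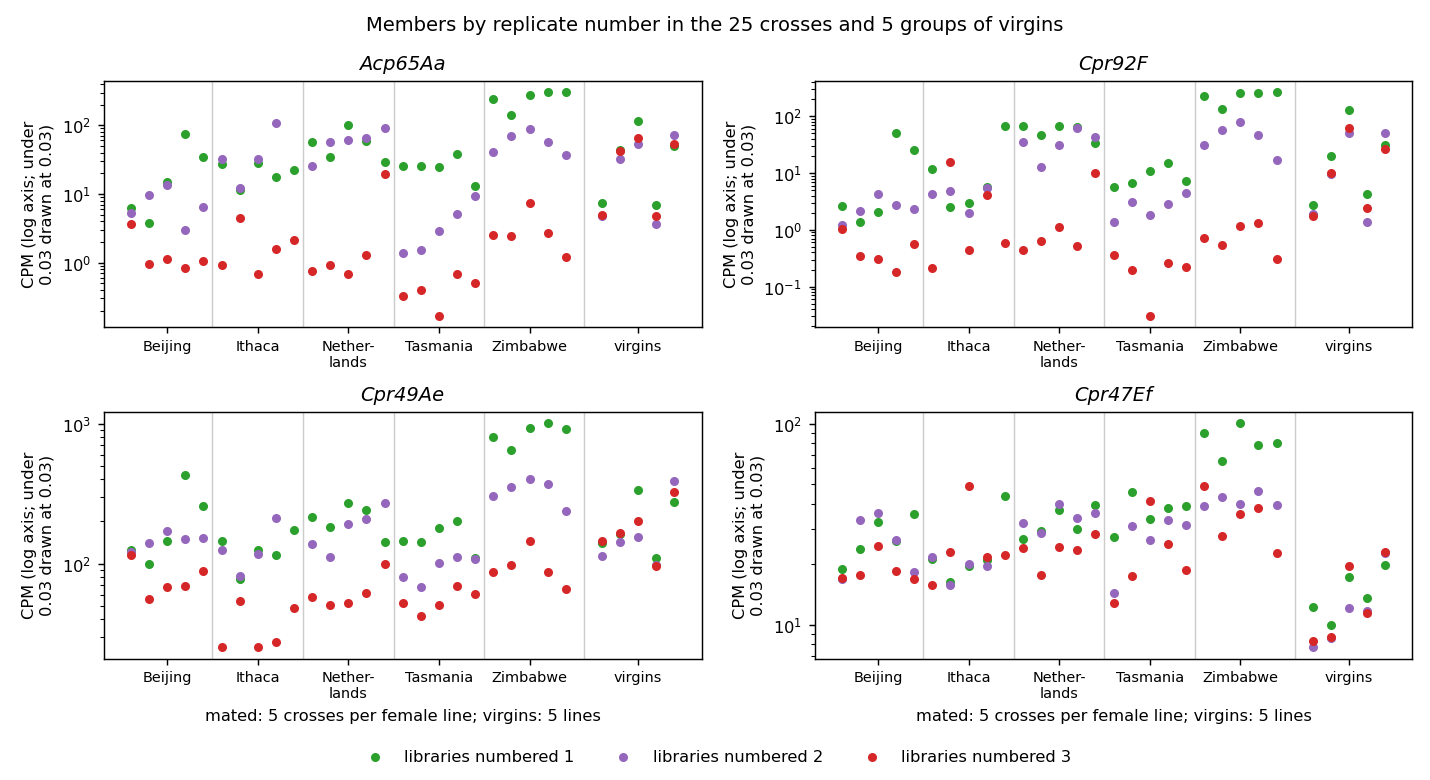
CPM (log axis) of 4 members in each library of the 25 crosses, grouped by female line, and of the 5 groups of virgins, coloured by replicate number. Red points (number 3) lay lowest in every complete cross for Acp65Aa and Cpr49Ae but not among virgins, while Cpr47Ef was higher in mated than in virgin females at each number.

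Averaged over the 5 lines, 7 of the 48 tested members differed between mated and virgin females, against 5.63% of all genes. Pcp, Cpr47Ef, Cpr73D, Cpr67B and Ccp84Ab were higher in mated females (background of higher calls 4.16%), and TwdlE and Lcp65Ag2 were lower (background of lower calls 1.47%). A further 3 members reached an unadjusted p under 0.05, which made 10 of 48 in all, against 16.1% of all genes. The median log2 change over the 48 members was 0.09, and 0.01 over all genes. Without the 9 libraries set apart, 7 of 49 members were called, again 5 higher (4.31% of all genes) and 2 lower (1.57%), against 5.88% in either direction. The median log2 change was then 0.0032 over the 49 members and -0.0125 over all genes.

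Pcp encodes a pupal cuticle protein. In virgins it had 2.36, 1.42 and 0.545 CPM in the Beijing replicates, 1.40, 1.62 and 1.05 CPM in Ithaca, and 0.608, 1.43 and 0.611 CPM in Netherlands. Tasmania virgins had 2.01, 3.69 and 1.28 CPM and Zimbabwe virgins 0.939, 0.534 and 0.0980 CPM. Mated females ranged from 1.57 to 5.65 CPM in Beijing (median 3.75), from 1.22 to 6.15 CPM in Ithaca (median 4.07) and from 1.65 to 6.90 CPM in Netherlands (median 3.79). They ranged from 5.15 to 19.8 CPM in Tasmania (median 9.88) and from 0.440 to 3.28 CPM in Zimbabwe (median 1.95). Of 74 mated libraries, 66 lay above every virgin library of their line. The mean log2 change was 1.72 ± 0.20 (adjusted p = 6.27e-09), a 3.29-fold higher level in mated females. Within libraries of 1 number the change was 1.32 ± 0.28 for number 1 (adjusted p = 0.0302), 1.47 ± 0.34 for number 2 (adjusted p = 0.0525) and 2.78 ± 0.36 for number 3 (adjusted p = 5.36e-06), so the call was not made in number 2 alone.

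Cpr47Ef, a member of the chitin-binding family, was called in libraries of every replicate number. Virgin levels were 12.2, 7.72 and 8.28 CPM in Beijing, 10.03, 8.62 and 8.70 CPM in Ithaca, 17.4, 12.1 and 19.5 CPM in Netherlands, 13.5, 11.7 and 11.5 CPM in Tasmania, and 19.8, 22.8 and 22.9 CPM in Zimbabwe. Mated Beijing and Ithaca females ranged from 16.9 to 36.0 CPM (median 23.8) and from 15.8 to 48.9 CPM (median 21.2), with no overlap with virgins of their line. Mated Netherlands, Tasmania and Zimbabwe females ranged from 17.8 to 39.7 CPM (median 29.3), from 12.8 to 45.8 CPM (median 31.2) and from 22.8 to 101 CPM (median 43.5), and in each of these lines 1 of 15 mated libraries fell within the range of virgins. The mean log2 change was 1.21 ± 0.14 (adjusted p = 1.12e-08), which is 2.32-fold. Libraries of 1 number alone gave 1.36 ± 0.19 for number 1 (adjusted p = 8.15e-04), 1.29 ± 0.18 for number 2 (adjusted p = 0.00112) and 0.86 ± 0.24 for number 3 (adjusted p = 0.0166).

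Smaller changes were found for Cpr73D and Cpr67B. Cpr73D averaged 2.69 to 5.20 CPM in the virgins of the 5 lines and 4.20 to 6.38 CPM in mated females, and its mean log2 change was 0.50 ± 0.10 (adjusted p = 4.80e-04). Its exons overlap those of Ogdh on the other strand, so the same limit of strand applies. Cpr67B averaged 26.0 to 59.5 CPM in virgins and 36.8 to 65.8 CPM in mated females, with a mean log2 change of 0.48 ± 0.11 (adjusted p = 0.00193). In Ithaca, the line with the highest virgin level, 8 of 14 mated libraries lay above all virgins and 4 lay below them. The call of Cpr73D was lost without replicate 2 (0.43 ± 0.13, adjusted p = 0.0599) and that of Cpr67B without replicate 1 (0.41 ± 0.15, adjusted p = 0.136) or 2 (0.40 ± 0.13, adjusted p = 0.114), and neither was made within a single number. Within number 3 alone Cpr67B changed by 0.18 ± 0.13 (adjusted p = 0.392).

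Ccp84Ab, of the 84A cluster, was almost silent outside mated Zimbabwe females. Its 3 Zimbabwe virgin libraries had 0.313, 0.356 and 0.490 CPM, while mated Zimbabwe libraries ranged from 0.495 to 13.1 CPM with a median of 1.67 CPM, all above the virgins. The 5 highest were the 5 libraries numbered 1, at 13.1, 2.58, 6.87, 5.35 and 9.25 CPM after mating with Beijing, Ithaca, Netherlands, Tasmania and Zimbabwe males. Virgins of Ithaca and Netherlands had no count, and mated females there averaged 0.212 and 0.194 CPM, at least 2.66-fold and 2.48-fold higher than the floor of 3 counts over the virgin libraries of the line. The fitted mean change of 2.68 ± 0.60 on the log2 scale (adjusted p = 0.00218) includes these lines and depends on the prior count. It was not called without replicate 1 (2.21 ± 0.68, adjusted p = 0.0657) or 2 (2.80 ± 0.83, adjusted p = 0.0659), and without replicate 3 no usable error could be fitted. Libraries of 1 number gave 3.88 ± 0.92 for number 1 (adjusted p = 0.0644) and 1.04 ± 0.74 for number 3 (adjusted p = 0.371), and it was not tested in number 2. Ccp84Aa, its neighbour in name and in the cluster, had the pattern most like it within groups (Pearson's r = 0.71 over 89 libraries). Next came CG15021, Cpr47Ef, CG31606 and b6, with r of 0.52 to 0.57.

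TwdlE and Lcp65Ag2 were lower in mated than in virgin females. TwdlE virgin libraries had 14.7, 13.9 and 27.2 CPM in Beijing, 6.88, 9.11 and 7.05 CPM in Tasmania, 2.14, 1.77 and 3.35 CPM in Ithaca, 2.09, 1.62 and 1.57 CPM in Netherlands, and 1.19, 1.42 and 1.37 CPM in Zimbabwe. Mated medians were 12.9 CPM in Beijing (8.28 to 24.9), 3.87 CPM in Tasmania (1.29 to 7.46), 0.961 CPM in Ithaca (0.473 to 2.73), 1.07 CPM in Netherlands (0.441 to 3.11) and 0.686 CPM in Zimbabwe (0.203 to 1.69). Mated libraries were below all virgins of their line in 61 of 74 cases. The log2 change of TwdlE was -0.85 ± 0.18 (adjusted p = 8.53e-04), but it moved with the replicate number as well. Within number 3 the change was -1.68 ± 0.17 (adjusted p = 8.26e-08), while numbers 1 and 2 gave -0.45 ± 0.16 (adjusted p = 0.225) and -0.43 ± 0.27 (adjusted p = 0.456), and without replicate 3 it was -0.47 ± 0.16 (adjusted p = 0.113). Exons of TwdlE overlap lectin-28C on the other strand, and lectin-28C had a log2 change of -0.78 ± 0.17 (adjusted p = 0.00103). Lcp65Ag2, a larval cuticle protein gene with numbered copies, averaged 0.184 to 1.16 CPM in virgins and 0.0585 to 0.827 CPM in mated females. Its log2 change was -1.08 ± 0.29 (adjusted p = 0.0148), a call that was lost without replicate 2 (-0.99 ± 0.35, adjusted p = 0.139) or 3 (-1.14 ± 0.37, adjusted p = 0.11). Libraries numbered 1 alone gave -0.54 ± 0.44 (adjusted p = 0.652), and it was not tested in the other two numbers.

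**Figure D3:**
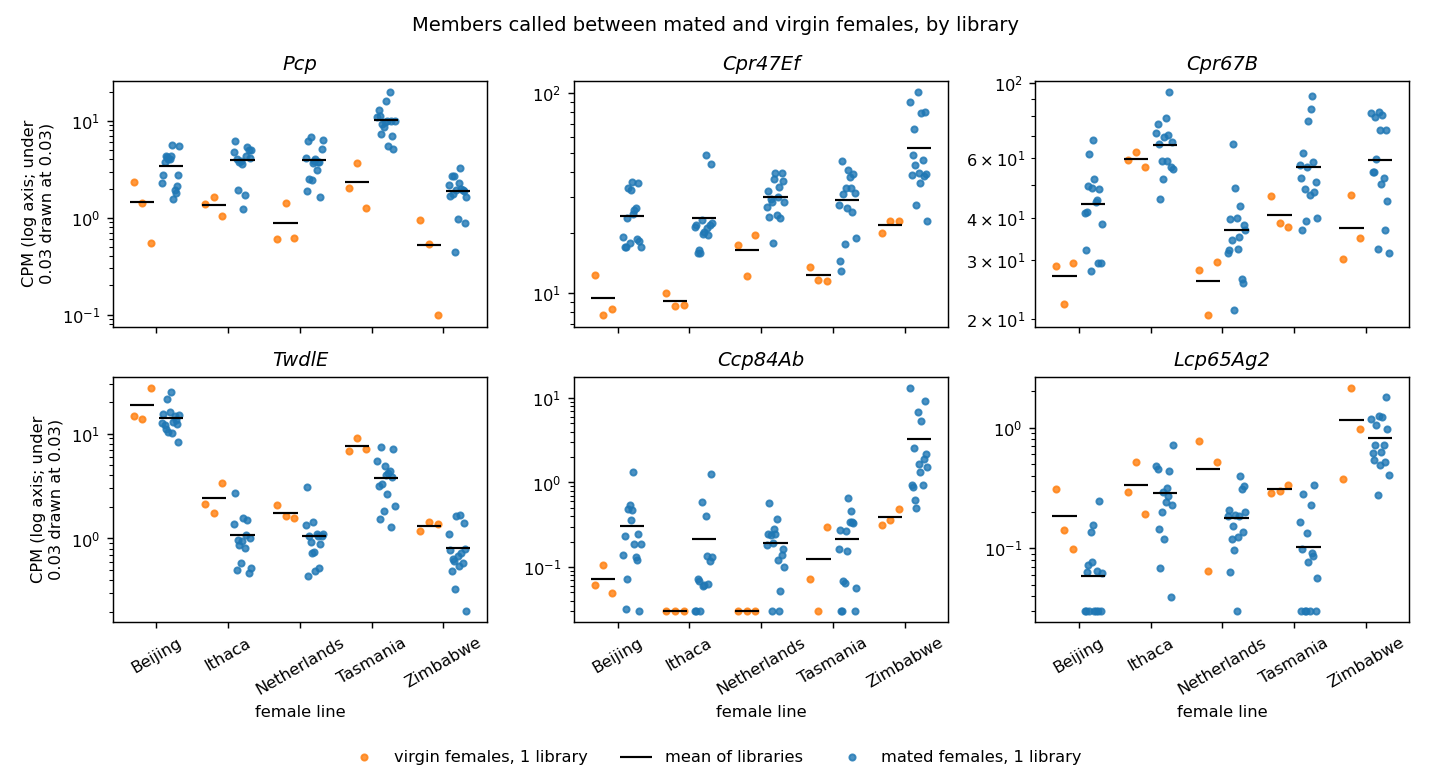
CPM (log axis, values under 0.03 drawn at 0.03) in each library of virgin (orange) and mated (blue) females by female line, with group means as black bars, for 6 of the 7 members called between mated and virgin females. Pcp and Cpr47Ef were higher in mated females of every line, while Ccp84Ab exceeded 2 CPM in Zimbabwe females alone.

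Libraries of a single number gave very different counts of members called between mated and virgin females. Libraries numbered 1 gave 2 of 41 tested members (Cpr47Ef and Pcp) against 0.235% of all genes, and libraries numbered 2 gave 1 of 36 (Cpr47Ef) against 0.364%. Libraries numbered 3 gave 16 of 38 against 15.5% of all genes. Of these 16, Pcp and Cpr47Ef were higher in mated females (7.66% of all genes were) and 14 were lower (7.88% of all genes), among them Acp65Aa (log2 change -3.66 ± 0.48, adjusted p = 1.56e-05), Cpr92F (-3.59 ± 0.64, adjusted p = 5.63e-04) and Cpr49Ae (-1.52 ± 0.19, adjusted p = 8.29e-06). In the main fit of group means over all libraries none of these 3 was called. Log2 changes were 0.06 ± 0.57 for Acp65Aa, 0.04 ± 0.59 for Cpr92F and -0.18 ± 0.27 for Cpr49Ae (adjusted p of 1, 1 and 0.898). A fitted group mean lies on the count scale, where high libraries weigh most, so these changes are not means over the numbers. Of 74 mated libraries, 43 (Acp65Aa), 40 (Cpr92F) and 37 (Cpr49Ae) lay below every virgin library of their line. In the same order, 18, 18 and 19 lay above. The fits within a number had terms for female line and mating and were chosen after the data were seen.

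Within single lines few members passed the test. In Netherlands females 1 of 48 was called (0.125% of all genes), which was Pcp with a log2 change of 2.11 ± 0.46 (adjusted p = 0.0255). In Tasmania females 3 of 48 were called (0.822% of all genes): Pcp (2.14 ± 0.42, adjusted p = 0.00282) and Cpr47Ef (1.21 ± 0.32, adjusted p = 0.0463) were higher in mated females and TwdlBeta was lower (-1.64 ± 0.41, adjusted p = 0.0336). TwdlBeta had 0.788, 0.376 and 0.675 CPM in Tasmania virgins and 0 to 0.465 CPM in mated Tasmania females. Tasmania virgin replicate 3 held 21.2% Zimbabwe RNA, a line in which TwdlBeta averaged 4.52 CPM in virgins. Without the 9 libraries no Tasmania member was called, against 0.0739% of all genes, although the log2 changes were close to those above, at 1.82 ± 0.44 for Pcp (adjusted p = 0.0528), 1.16 ± 0.38 for Cpr47Ef (adjusted p = 0.246) and -1.56 ± 0.54 for TwdlBeta (adjusted p = 0.28). In Netherlands the Pcp call was lost whichever replicate number was left out (adjusted p of 0.0927, 0.17 and 0.603 without replicates 1, 2 and 3), with log2 changes of 2.03, 2.57 and 1.79. In Tasmania it was lost without replicate 1 (adjusted p = 0.0622) or 3 (adjusted p = 0.292), and the calls of Cpr47Ef (adjusted p of 0.155, 0.203 and 0.219) and TwdlBeta (0.427, 0.0599 and 0.495) were lost whichever number was left out. The log2 changes were then 1.80 to 2.51 for Pcp, 1.06 to 1.31 for Cpr47Ef and -2.18 to -1.38 for TwdlBeta.

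In Beijing, Ithaca and Zimbabwe females edgeR called 0 members, against 0.0249%, 0.174% and 0.083% of all genes. An unadjusted p under 0.05 was reached by 5, 6 and 8 members, against 2.29%, 8.66% and 5.64% of all genes. DESeq2 called 1 (Cpr47Ef), 2 and 2 (each Cpr47Ef and Pcp), and its share over all genes is not given here. Cpr47Ef changed by 1.34 ± 0.32 in Beijing (adjusted p = 0.177), 1.37 ± 0.33 in Ithaca (adjusted p = 0.0543), 0.87 ± 0.31 in Netherlands (adjusted p = 0.513) and 1.27 ± 0.32 in Zimbabwe (adjusted p = 0.0745). Pcp changed by 1.19 ± 0.41 in Beijing (adjusted p = 1), 1.45 ± 0.43 in Ithaca (adjusted p = 0.158) and 1.71 ± 0.49 in Zimbabwe (adjusted p = 0.183). The test of a difference in response between lines called 0 of 48 members by edgeR, against 0.0664% of all genes. An unadjusted p under 0.05 was reached by 2 members and by 3.44% of all genes.

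Cuticle protein genes differed between female lines. Among virgins 23 of 48 members differed between the 5 lines, against 27.5% of all genes, and among mated females 43 of 48 differed, against 70.1% of all genes. All 23 were among the 43. With 1 replicate number left out, and so fewer libraries per group, 10 to 15 members were called among virgins. The share of all genes called in those fits is not given here, so the drop cannot be read as particular to the members. For 19 of the 23 the same line was highest in virgins and in mated females, and for 13 the same line was lowest, as for 76.1% and 70.4% of all genes called in both. Of the 43, 21 were highest in Zimbabwe, 7 in Ithaca, 7 in Netherlands, 5 in Tasmania and 3 in Beijing. Of all genes called among mated females, 17.8% were highest in Zimbabwe, 24.8% in Ithaca, 19.6% in Netherlands, 16.2% in Tasmania and 21.7% in Beijing. Counted over all 43 in mated libraries of 1 number, 26 were highest in Zimbabwe for number 1, 12 for number 2 and 13 for number 3. In virgins 11 of the 21, Acp65Aa and Cpr92F among them, were highest in another line. Shares of all genes by number, and in virgins, are not given here, so these counts cannot be read as particular to the members. For 28 of the 43 the highest line exceeded the lowest by more than 4 times, against 16.6% of all genes called. A weak gene could pass the filter on counts through 1 line alone, as Cpr72Ea did. It averaged 4.76 CPM in mated Ithaca and 0.010 CPM in mated Zimbabwe females. Such genes have large ratios through the filter itself, so the share for these mostly weak members cannot be set against that of all genes. No test was made of these shares. Without the 9 libraries 23 and 44 of 49 members were called, against 31.4% and 71% of all genes.

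Some members were close to present or absent by line. Cpr72Ea had 4.72, 5.08 and 4.40 CPM in Ithaca virgins and at most 0.287 CPM in any virgin of the other lines (adjusted p = 1.10e-10 among virgins). Mated Ithaca females had 3.36 to 6.74 CPM, and mated females of the other lines at most 0.322 CPM apart from 2.76 CPM in the library labelled Netherlands x Ithaca replicate 2 (adjusted p = 4.35e-26 among mated females). Cpr72Ec, of the same band and a protein of the corneal lens, went the other way in 1 line. Its virgin levels in Zimbabwe were 0.250, 0.0890 and 0 CPM, against 1.50 to 5.30 CPM in the virgins of the other 4 lines (adjusted p = 1.15e-11). Mated Zimbabwe females had 0 to 0.597 CPM, and mated females elsewhere 1.55 to 9.27 CPM, with no overlap (adjusted p = 2.64e-28). Cpr66D, the other corneal lens protein among the members, varied less, from 3.65 CPM in Netherlands to 6.56 CPM in Ithaca among mated females.

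The Tweedle genes differed in which line was highest. TwdlBeta had 3.63, 6.32 and 3.63 CPM in Zimbabwe virgins and 0.349 to 0.892 CPM in the virgins of the other lines, and 1.93 to 6.71 CPM against 0 to 1.56 CPM in mated females (adjusted p = 1.73e-08 among virgins and 3.31e-26 among mated females). TwdlE was highest in Beijing and lowest in Zimbabwe, with means of 14.04 CPM and 0.814 CPM in mated females, a 17.2-fold difference (adjusted p = 6.61e-28). Lectin-28C, its overlapping gene, averaged 38.8 CPM in Beijing, 38.0 CPM in Tasmania, 14.9 CPM in Ithaca and 6.38 and 6.36 CPM in Netherlands and Zimbabwe. TwdlG averaged 0.0623 and 0.0967 CPM in mated Beijing and Zimbabwe females and 0.818 to 1.12 CPM in the other 3 lines, and all of its virgin values in those 3 lines (0.369 to 1.24 CPM) lay above those of Beijing and Zimbabwe (0 to 0.178 CPM).

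Further Cpr genes separated the lines in other ways. Cpr62Ba averaged 2.29 CPM in Netherlands virgins, 1.28 and 1.18 CPM in Tasmania and Zimbabwe virgins, and 0.216 and 0.268 CPM in Beijing and Ithaca virgins. The order was alike in mated females, at 2.73, 1.38, 1.09, 0.233 and 0.387 CPM. Cpr67Fb was low in Ithaca and Tasmania, with virgin means of 0.535 ± 0.223 (SD, n = 3) and 0.933 ± 0.554 CPM, and reached 4.41 ± 1.64 CPM in Netherlands, 3.51 ± 0.87 CPM in Zimbabwe and 2.54 ± 0.34 CPM in Beijing. Cpr67Fb overlaps an antisense transcript, so the same limit of strand applies to it. Cpr49Ah averaged 1.92 CPM in Zimbabwe virgins and 0.0118 to 0.644 CPM elsewhere, Ccp84Ag was lowest in Beijing (0.260 CPM, against 0.633 to 1.52 CPM), and Cpr76Bc was highest in Tasmania (1.85 CPM, against 0.670 to 1.39 CPM).

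Only 3 of the 15 larval cuticle (Lcp) genes had enough counts for a test, and Lcp1 and Lcp3 differed between lines among virgins. Lcp65Ag2 was not called there (adjusted p = 0.0872). Lcp1 averaged 0.628 and 0.933 CPM in Beijing and Zimbabwe virgins and 0.0723 to 0.124 CPM in the other lines (adjusted p = 3.66e-05). Lcp3 had 0.876, 0.801 and 2.25 CPM in Zimbabwe virgins and at most 0.295 CPM in other virgins (adjusted p = 7.68e-06). Per the submitters' processing notes the reads of all lines were mapped to the dm3 genome, and the part that sequence differences between lines play in these counts was not tested.

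**Figure D4:**
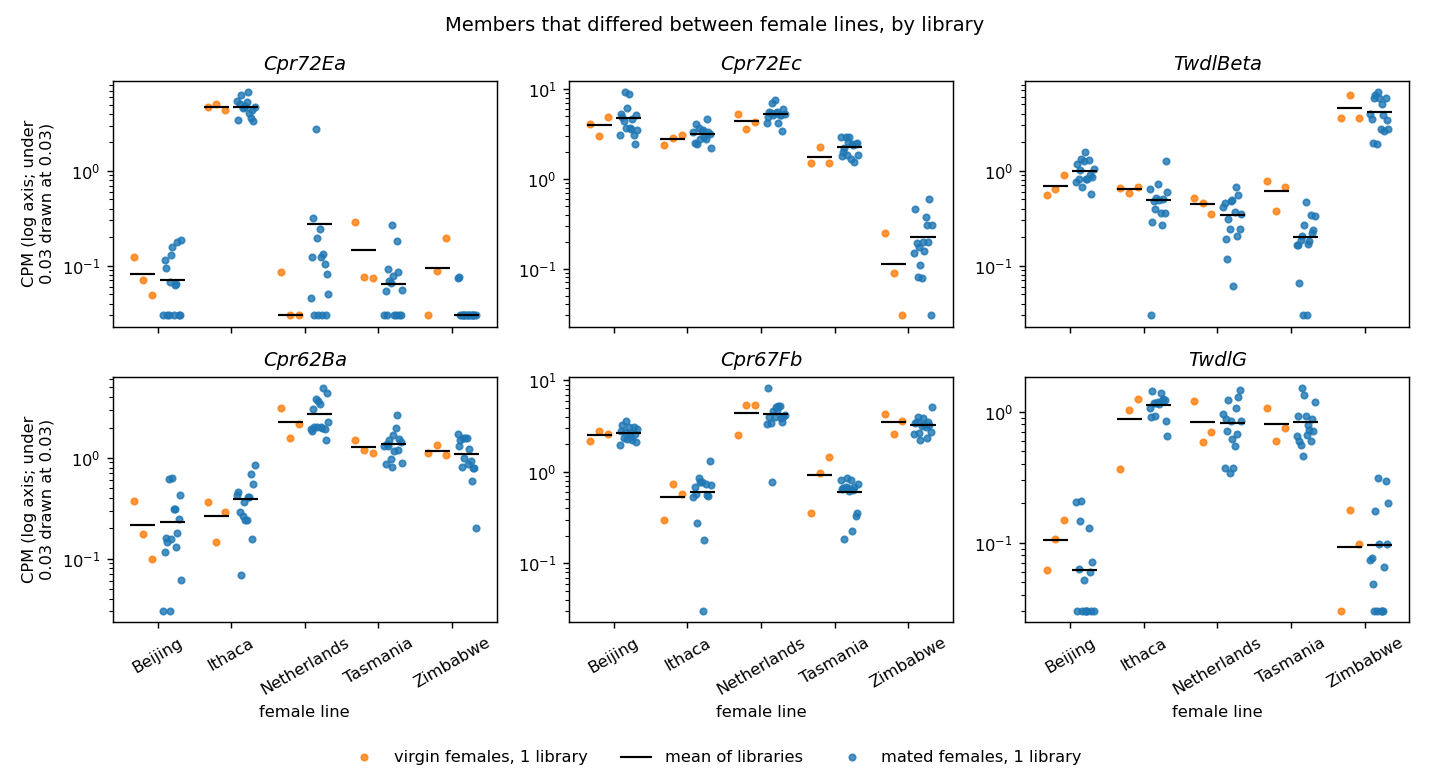
CPM (log axis, values under 0.03 drawn at 0.03) in each library of virgin (orange) and mated (blue) females by female line, with means as black bars, for 6 members with the smallest p between lines. Cpr72Ea stood above 3 CPM in Ithaca alone, Cpr72Ec reached at most 0.597 CPM in Zimbabwe, and the point at 2.76 CPM for Cpr72Ea in Netherlands is the library that holds Ithaca RNA.

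Few members differed with the line of the male. Averaged over female lines, edgeR called 0 of 48 members between male lines, against 0.0083% of all genes. An unadjusted p under 0.05 was reached by 1 member and by 12.6% of all genes. The test of whether the male's line acted differently by female line called 0 of 48, against 3.53% of all genes. Here 2 members and 9.87% of all genes had an unadjusted p under 0.05. Within Beijing, Tasmania and Zimbabwe females edgeR called 0 members, against 0.0415%, 0.208% and 0% of all genes. An unadjusted p under 0.05 was reached by 2, 0 and 1 members, against 4.08%, 5.09% and 1.12% of all genes.

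Within Ithaca females 2 members were called between males of different lines, Twdlalpha and Cpr56F, against 7.99% of all genes. Within Netherlands females 2 were called, Cpr72Ea and Twdlalpha, against 11.2% of all genes. Each call rested on 1 library. Twdlalpha had 3.19 CPM in Ithaca x Zimbabwe replicate 1 and 2.74 CPM in Netherlands x Beijing replicate 2, the 2 libraries with the most testis RNA, and at most 1.64 CPM in the other 87. Cpr56F had 1.47 and 1.16 CPM in these 2 libraries and at most 0.564 CPM elsewhere. Ccp84Af (0.717 and 0.581 CPM, at most 0.133 CPM elsewhere) and Cpr31A, which had too few counts for a test, were also highest there. All 4 members rest on 9 to 98 counts in these libraries, and the exons of Twdlalpha overlap those of CG32568. Cpr72Ea reached 2.76 CPM in the library labelled Netherlands x Ithaca replicate 2, which holds Ithaca RNA.

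Without the 9 libraries none of these calls remained, against backgrounds of 0.213% in Ithaca and 0.0647% in Netherlands females. A single member, Cpr30B, was then called within Ithaca females (adjusted p = 0.00335). It had 0.598, 2.80 and 1.80 CPM in the Ithaca x Netherlands replicates and 0.133 to 1.14 CPM in the other mated Ithaca libraries, and the replicate with 0.598 CPM was one of those left out.

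Part of the family moved together across libraries. After each group's mean was removed, the 28 members with a mean of at least 1 CPM gave 378 pairs, with a median Pearson's r of 0.45 over 89 libraries. In 48 of these pairs (12.7%), which held 14 of the 28 members, r exceeded 0.8. Over all 9788 tested genes with that mean the median r was 0.0035, and 2.68% of pairs exceeded 0.8. Among the highest members, Cpr65Au and Cpr67B had r of 0.60 and 0.71 with Cpr49Ae, while the weaker Cpr97Ea (mean 1.32 CPM) had 0.86. Cpr49Ae and Cpr47Ea had r = 0.96, Cpr49Ae and Acp65Aa had r = 0.96, and Cpr92F and Cpr62Bc had r = 0.95. These pairs share their libraries and the scaling of each library, and the replicate number moves with all of them, so r is given as a description only. Pcp, Cpr66D and Cpr67Fb stood outside the block, with r of -0.014, -0.028 and -0.16 with Cpr49Ae, and Cpr73D (0.11) and Cpr72Ec (0.22) were also low. Without the 9 libraries these r were -0.0097, -0.15, -0.36, 0.30 and 0.22, in the same order, and r exceeded 0.8 in 59 pairs.

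**Figure D5:**
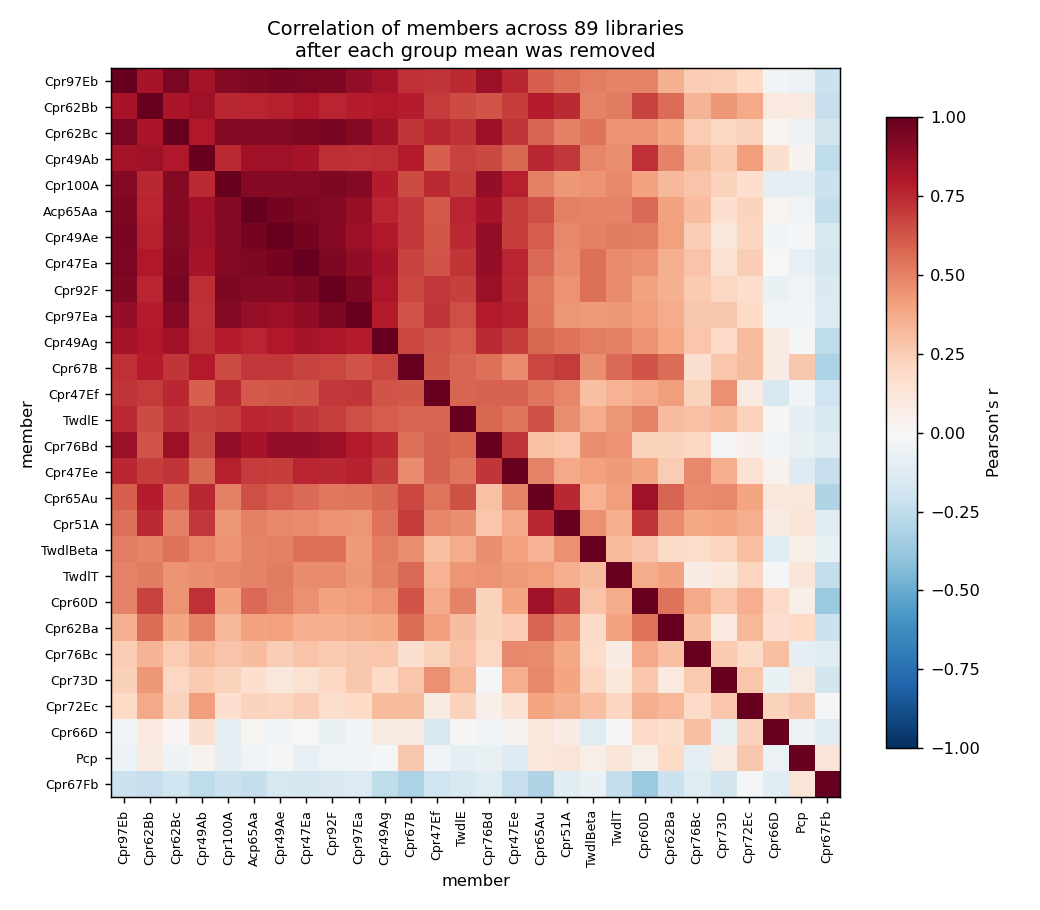
Pearson's r between the 28 members with a mean of at least 1 CPM, across 89 libraries after group means were removed, ordered by the median r of a member. The red square holds the block around Cpr97Eb, Acp65Aa, Cpr49Ae and Cpr92F, and Cpr66D, Pcp and Cpr67Fb at the lower right have values near 0 or below with that block.

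Genes outside the family were found beside the block. The genes most like Acp65Aa were CG7214 (r = 0.97), CG1368 (r = 0.96), the member Cpr49Ae, the myosin light chain gene Mlc2 (r = 0.95) and serp, a chitin deacetylase (r = 0.94). The genes most like Cpr92F were CG7214 (r = 0.97), the adult cuticle protein gene Acp1 (r = 0.96) and the members Cpr62Bc and Cpr100A, with CG16884. These 2 members were chosen for this comparison after their values were seen. The genes most like Cpr47Ef were CG16885 (r = 0.80), Clect27, CG11458, CG9572 and CG16884 (r of 0.76 to 0.79). For Pcp they were Ir47a (r = 0.59), CR43458, CG3649, Listericin and CG12655 (r of 0.52 to 0.59).

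A few other genes of cuticle formation were also called between mated and virgin females. Of 38 tested genes of chitin synthesis, modification and binding, 2 were higher in mated females and 0 lower. These were Idgf3 (log2 change 0.26 ± 0.08, adjusted p = 0.0427) and Idgf4 (0.20 ± 0.06, adjusted p = 0.0302), secreted proteins related to chitinases. Of 21 tested genes of tanning and pigmentation, 3 were higher and 0 lower, against 4.16% and 1.47% of all genes. These were ple, which encodes tyrosine hydroxylase (0.69 ± 0.17, adjusted p = 0.00552), and the Yellow family genes yellow-d (0.34 ± 0.07, adjusted p = 8.53e-04) and yellow-e (0.31 ± 0.08, adjusted p = 0.0146). Mean levels of ple were 27.0 CPM in virgin and 44.2 CPM in mated females.

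Of 16 tested genes of other structural cuticle and apical matrix proteins, pio, a zona pellucida domain protein, was higher (0.23 ± 0.07, adjusted p = 0.0357) and 0 were lower, again against 4.16% and 1.47% of all genes. Of 22 tested regulators of cuticle genes, edgeR called 0, with 2 at an unadjusted p under 0.05, and DESeq2 called 0. Over the 4 lists 6 of 97 genes were called, near the 5.63% of all genes. In the first 3 lists 6, 7 and 4 genes reached an unadjusted p under 0.05, as did 16.1% of all genes, and DESeq2 called 3, 3 and 1. The median log2 changes of the 4 lists were 0.04, 0.11, 0.16 and -0.07, against 0.01 for all genes. Without the 9 libraries ple, yellow-d and yellow-e were still called, and Idgf3 (0.23, adjusted p = 0.103), Idgf4 (0.19, adjusted p = 0.0582) and pio (0.23, adjusted p = 0.0512) were not, with log2 changes close to those over all libraries. Edg91, of the structural cuticle list, was then called lower (-0.69, adjusted p = 0.0473), against -0.49 (adjusted p = 0.228) over all libraries. The call of ple was lost without replicate 2 (log2 change 0.69, adjusted p = 0.0724) or 3 (0.75, adjusted p = 0.0551). That of yellow-d was lost without replicate 3 (0.26, adjusted p = 0.0703), and that of yellow-e without replicate 1 (0.24, adjusted p = 0.182) or 2 (0.24, adjusted p = 0.281). Within number 3 alone yellow-e changed by 0.06 ± 0.11 (adjusted p = 0.777). Idgf3, Idgf4 and pio lost their calls whichever of the 3 numbers was left out.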

How the data were processed

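Whole-fly RNA libraries (TruSeq, single reads of 100 bases) were processed by the authors with FastQC, Trimmomatic, TopHat2 and HTSeq on the build dm3, per the submitters' processing notes. Versions, annotation, options and strand setting are not given in the sources used here. The authors deposited unscaled counts of reads for each gene, and 8 rows with a number for a symbol (0.122% of counts) were left out. Per the labels, replicates are separate pools of flies.

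With R 4.3.3 and edgeR 4.0.16 (limma 3.58.1), genes were kept by filterByExpr over 30 groups (12045 genes), scaled by TMM (factors 0.740 to 1.10) and fitted by robust quasi-likelihood with 1 mean per group over all 89 libraries. Comparisons were contrasts of group means, and a gene was called at an adjusted p (Benjamini-Hochberg, over all tested genes) under 0.05. Errors of log2 changes are SE, computed as the size of the change over the root of F. CPM uses TMM library sizes, and correlations use log2 CPM with a prior count of 2. Exon lengths, overlaps and names came from BDGP6, which matched all 120 members. DESeq2 1.42.0 was an alternative. On simulated counts for mated against virgin females (12045 genes), 94% of log2 changes of 1 and 100% of changes of 2 were recovered. Each size was planted in 100 genes, and 30 unchanged genes were falsely called. The simulated libraries had no line or replicate number effect, and only genes of at least 1 CPM were changed. Recovery for weaker members, or with such effects, was therefore not measured.

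RNA of another line was estimated from genes with a median of at least 2 CPM in that line and at most 0.03 of it in the own line, members excluded. Libraries above 10%, or with more than 10 CPM of testis markers, were set apart.

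The members, lists and rule for named genes were chosen with earlier results of these data known. The rule names all called members in the mating, male line and interaction comparisons (the 25, 6 or 10 with the smallest p if more), the 12 with the smallest p between lines, the 15 highest levels and 10 per length, and the 5 genes most like the 3 largest changes. The comparison by replicate number, the fits within a number, and the further examples were added after values were seen. No pair of libraries in a group agreed within counting error (in 88 pairs the smallest chi-square per degree of freedom was 12.2). Alternatives were another scaling, no filter, a replicate block, leaving out libraries, fits on part of the libraries and a gene length covariate.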

Additional observations from a re-analysis of the deposited data

How the results depend on the processing

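Averaged over lines, 7 members were called between mated and virgin females, and 3 to 8 when a replicate number or a virgin library was left out. Added after the data were seen, libraries numbered 1, 2 and 3 alone gave 2, 1 and 16. Cpr47Ef was called in all 28 alternatives and Pcp in 27. In single lines the main counts were 0 in Beijing, Ithaca and Zimbabwe, 1 in Netherlands and 3 in Tasmania. DESeq2 called 1 in Beijing, 2 in Ithaca and 2 in Zimbabwe, and a length covariate gave 2 in Ithaca and 1 in Zimbabwe. Leaving out libraries gave 0 to 1 in Netherlands, 0 to 3 in Tasmania and 0 to 1 in Zimbabwe. Fits on the line's own libraries gave 0 in Netherlands and 0 in Tasmania, and Tasmania had 0 without the 9 libraries with male or other-line RNA. Among virgins 23 members differed between lines, and 10 to 15 with 1 replicate number left out. Shares of all genes called under DESeq2, the length covariate or a left-out number are not given here. Within Ithaca females the 2 calls between male lines became 4 with no filter, 0 to 4 without a replicate, 1 without libraries with male RNA, 1 without the 9 libraries and 0 with the length covariate. Within Netherlands females the 2 calls became 0 to 2 without a replicate, 0 without libraries with male RNA and 0 without the 9 libraries. No gene named as called between mated and virgin females in the main fit changed direction in these alternatives. Among members not called on average, the log2 change of Acp65Aa was 0.28, 0.20 and -3.66 and that of Cpr92F 0.48, -0.22 and -3.59 in libraries numbered 1, 2 and 3 alone. Where the cause is not the smaller number of libraries, it was not tested.

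The replicate number as a block gave 1 called member in Beijing, 1 in Ithaca and 1 in Zimbabwe, Cpr47Ef each time (adjusted p of 0.021, 0.0103 and 0.0355), against 0.0415%, 0.374% and 0.149% of all genes. It gave 4 in Tasmania, TwdlE added, against 1.38%, and 8 averaged over lines, Cpr97Eb added as lower, against 7.11%. The numbers are not known to pair the groups: over the 2000 genes of highest mean, deviations from group means correlated at 0.175 on average between libraries of the same number and -0.0846 between those of different numbers. In 134 of 435 pairs of groups every correlation exceeded 0.1, and 61 of 89 libraries correlated best with their own number. Depth limits members under about 0.1 CPM, of which none was tested.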
